A study of Homo sapiens with 12 samples.

Results

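The interleukin 6 family cytokines and the genes that feed back on their signal were examined in lung cancer cells in which miR-197 was supplied or blocked. The 10 genes are the ligands IL6, LIF and IL11, the receptor chains IL6ST, LIFR and OSMR, the signal inhibitors SOCS1, SOCS3 and CISH, and the kinase gene PIM1. They were selected by name: every array probe that the scanner files assign to one of these symbols was taken, which gave 19 of 50599 probes. IL6ST had 7 probes, IL6, LIF and OSMR had 2 each, and the other 6 genes had 1 each. A probe entered the tests when 3 or more of the 12 arrays read it well above background, which held for 18 of the 19. The exception was the second IL6 probe, A_33_P3407013, which no array read well above background (0 of 12).

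Messenger RNA was measured in A549, PC14 and PC14CDDP, all of them lung adenocarcinoma lines, with PC14 the parental line of the cisplatin-resistant PC14CDDP. Cells of each line, grown in RPMI medium with fetal bovine serum, received 1 of 4 oligonucleotides at 25 nM with the same transfection reagent. Pre-miR-197 is a precursor that supplies the miRNA and was set against NC (AllStar-NC), and the inhibitor LNA-miR-197, made of locked nucleic acid, was set against LNA-NC (LNA-miR-NC). Each line and transfection gave 1 single-dye oligonucleotide array, so the 3 lines served as the replicates of a transfection and the 4 arrays of a line as the replicates of that line. The labels do not say whether the 4 transfections of a line came from separate cultures, so p-values measure only the spread between these arrays. No line was left untransfected in these data, and mature miR-197 itself is not measured by the arrays.

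Interleukin 6 family cytokines signal through receptor complexes that share gp130, the product of IL6ST. A ligand-specific chain joins it, such as LIFR for leukemia inhibitory factor and OSMR for oncostatin M. Receptor-bound JAK kinases then phosphorylate STAT3, which enters the nucleus and switches on, among other genes, SOCS3 and PIM1. SOCS proteins bind the receptor or the kinases and end the signal. In lung adenocarcinoma this pathway is known for autocrine activation of STAT3 by tumor-derived IL-6.

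The reagents were built around miR-197, whose mature arms are shown because they define what was supplied or blocked. The sequences are those of RefSeq on GRCh38.p14, with the hairpin on chromosome 1, and capitals mark the seed, bases 2 to 8. The labels do not name the arm, and no search for seed matches in the members' transcripts was made.
hsa-miR-197-3p: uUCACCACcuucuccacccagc
hsa-miR-197-5p: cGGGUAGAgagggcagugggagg

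Promoters were searched for the letters TTCNNNGAA, the core of a STAT site, and for the same outer letters set 4 or 2 bases apart. These palindromic letters read the same on both strands, N is any base, and the window ran from 250 bases before to 50 after each start listed in RefSeq (GRCh38.p14). Of all 34943 promoters, 7.66% held the first form, 6.46% the second and 7.74% the third. CISH, an inhibitor classically switched on by STAT5, held 4 copies of TTCNNNGAA, starting 241, 230, 129 and 112 bases before its start. LIFR held 1 copy in 2 of its 3 promoters, and SOCS3 held the form with 2 bases between (TTCNNGAA) once in 1 of 2. IL6, IL11, IL6ST, OSMR, SOCS1 and PIM1 held none of the 3 forms in this window, which says only that these letters are absent there. The stretches with matches are shown on the strand of the gene, with the matches in capitals.
CISH, chr3:50611848-50612024, minus strand: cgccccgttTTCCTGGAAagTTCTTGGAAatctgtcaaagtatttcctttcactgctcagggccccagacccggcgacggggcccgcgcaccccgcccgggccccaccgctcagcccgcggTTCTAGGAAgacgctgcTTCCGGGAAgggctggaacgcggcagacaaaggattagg
SOCS3, chr17:78361103-78361170, minus strand: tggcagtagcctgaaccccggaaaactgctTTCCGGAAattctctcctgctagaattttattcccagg
LIFR, chr5:38595532-38595600, minus strand: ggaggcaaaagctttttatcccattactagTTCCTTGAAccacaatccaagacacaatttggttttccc
LIFR, chr5:38557611-38557679, minus strand: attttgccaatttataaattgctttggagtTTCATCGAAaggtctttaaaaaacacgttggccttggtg

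Levels below are given on the log2 scale, with the 75th percentile of each array set to 0, so a difference of 1 is a doubling, and levels of different probes are not compared with each other. Between 55.8% and 63.1% of probes per array were well above background. The 4 arrays of A549 shared slide 1, and PC14 and PC14CDDP shared slide 2, so for A549 the line and the slide cannot be told apart, whereas PC14CDDP and PC14 were compared within a slide, on different rows. A transfection always sat in the same column of its slide, so column and transfection cannot be told apart either. Among 5 epithelial genes, KRT8, KRT18 and KRT19 were well above background on every array, while CDH1 and EPCAM were so on all arrays of A549 and on none of PC14CDDP. The summed signal of the 8 epithelial probes, in units of the 75th percentile, was 573 to 795 in A549, 300 to 430 in PC14 and 310 to 449 in PC14CDDP. Of 10 fibroblast, endothelial and leukocyte genes, 6 in A549, 7 in PC14 and 6 in PC14CDDP were well above background on all 4 arrays, with a summed signal of the 18 probes of 3.75 to 4.99, 2.25 to 2.8 and 0.73 to 1.34. COL1A2 was above background in no line and PECAM1 in no array of PC14CDDP. The part of these differences in the results below was not tested.

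The members that passed the test did so between cell lines, and none did between transfections. In PC14CDDP against PC14, 13 of the 18 tested probes, from 9 of the 10 genes, passed an adjusted p of 0.05 (limma), where 48.8% of all 33714 probes did. The 4 that were higher in PC14CDDP were the inhibitors SOCS1, SOCS3 and CISH and the kinase gene PIM1 (26.1% of all probes were called higher). The 9 that were lower were probes of the ligands IL6 and LIF and of the receptors IL6ST, LIFR and OSMR (22.7% of all probes were called lower). IL6 entered the tests only through its A549 and PC14 arrays, so its calls against PC14CDDP, here and below, carry no weight as tests. The median difference of the 18 probes was -0.47, beside 0.06 over all probes. The ranges of the 4 arrays did not overlap for 11 of 18 probes, against 36.3% of all probes.

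A549 was set against both other lines. Against PC14, 7 of the 18 probes were called, where 67.4% of all probes were. Of them 4 were higher in A549 (34.6% of all probes) and 3 lower (32.8%), and 7 did not overlap where 57.9% of all probes did not. Against PC14CDDP, 17 probes were called, where 70% of all probes were, and all 10 genes had at least 1 of them. Of the 17, 14 were higher in A549 (34.9% of all probes) and 3 lower (35% of all probes), the latter being LIFR, SOCS1 and PIM1. Here 9 of 18 probes did not overlap, against 55.5% of all probes. The median difference was -0.07 against PC14 and 0.54 against PC14CDDP, with medians over all probes of 0.06 and 0.02. The count against PC14CDDP fell to 10 without the NC arrays, to 10 without the LNA-NC arrays and to 11 when only the arrays of these lines were fitted. These 3 line comparisons share arrays and are not independent.

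**Figure D1:**
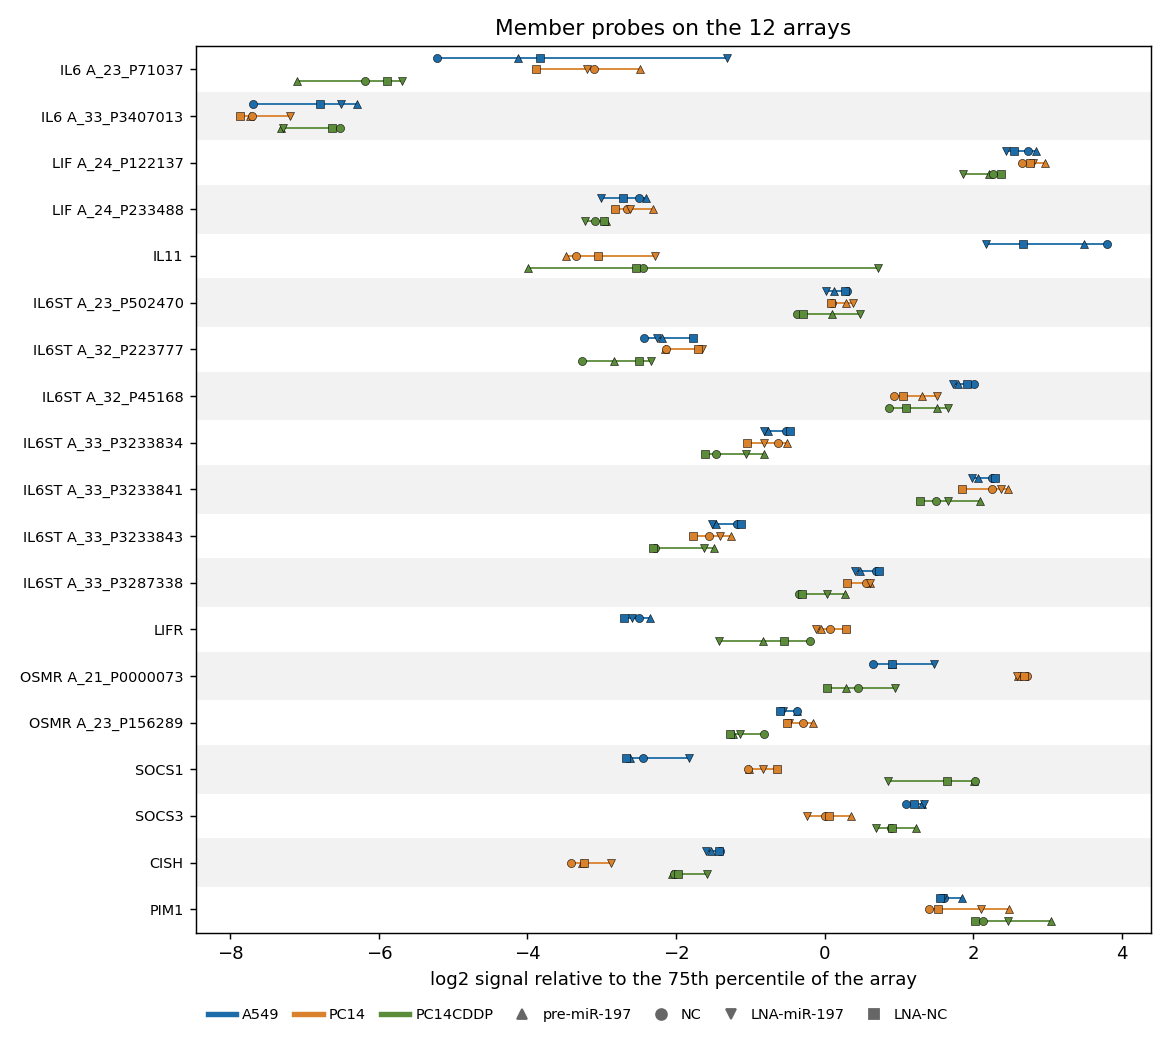
Levels of the 19 member probes on the 12 arrays. The x axis is the log2 level above or below the array's 75th percentile. Each symbol is 1 array, its shape gives the transfection and its color the line, and lines join the lowest and highest array of a cell line. IL11 in A549 (2.18 to 3.80) and SOCS1 in PC14CDDP (0.85 to 2.02) lie apart from the other lines.

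IL6, the ligand that gives the family its name, was read by probe A_23_P71037 (hg19, chr7:22771207-22771266, plus strand). In A549 it stood at -4.12 with pre-miR-197, -5.21 with NC, -1.31 with LNA-miR-197 and -3.83 with LNA-NC. In PC14 the same order gave -2.49, -3.10, -3.20 and -3.88, and in PC14CDDP -7.10, -6.19, -5.69 and -5.89. The probe was well above background on all arrays of A549 and PC14 and on none of PC14CDDP, and the ranges of A549 and PC14 overlapped while PC14CDDP lay below both. With PC14CDDP raised to the lowest signal that counts as well above background, PC14 was at least 4.28-fold higher than PC14CDDP. The measured means were -3.17 ± 0.57 and -6.22 ± 0.62 (SD, n = 4), and the limma test of their difference gave an adjusted p of 0.00467. In the same way A549 was at least 3.13-fold higher than PC14CDDP (measured mean -3.62 ± 1.65, SD, n = 4, adjusted p = 0.00643 for the measured difference). The probe entered the tests through its A549 and PC14 arrays alone. Both p-values against PC14CDDP therefore set them beside readings not well above background, and no conclusion is drawn from these p-values. A549 and PC14 differed by -0.45 ± 0.64 (SE, adjusted p = 0.556), less than the spread of the A549 arrays. With normexp background correction the difference between PC14CDDP and PC14 shrank to -0.79 and that between A549 and PC14CDDP to 0.81. Both were still called, but the folds given above as bounds do not hold with that correction. A549 minus PC14CDDP was 2.004 without the LNA-miR-197 arrays.

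LIF, which acts through LIFR and gp130, was read by 2 probes. At A_24_P122137 (chr22:30636713-30636772, minus strand) A549 arrays ranged from 2.45 to 2.84, PC14 arrays from 2.66 to 2.96 and PC14CDDP arrays from 1.86 to 2.37. At A_24_P233488 (chr22:30639661-30639720) the ranges were -3.01 to -2.40, -2.82 to -2.31 and -3.22 to -2.95. PC14CDDP was the lowest line at both probes, and A549 and PC14 overlapped. PC14CDDP was lower than PC14 by 0.62 ± 0.12 and by 0.46 ± 0.11 (SE, adjusted p = 0.00253 and 0.0108), and lower than A549 at both (A549 minus PC14CDDP 0.47 and 0.40, adjusted p = 0.00659 and 0.013). The call at the dimmer probe, A_24_P233488, was lost against both lines with normexp background correction (-0.16 and 0.17) and without the pre-miR-197 arrays (adjusted p = 0.0707 and 0.0699), and against A549 without the NC arrays (0.34, adjusted p = 0.0822) and with quantile normalization (0.15).

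IL11, a ligand with roles in platelet formation and fibrosis, had the largest line difference among the members. In A549 its probe A_33_P3243887 (chr19:55875788-55875847, minus strand) read 3.50 with pre-miR-197, 3.80 with NC, 2.18 with LNA-miR-197 and 2.68 with LNA-NC. In PC14 these arrays read -3.48, -3.34, -2.28 and -3.06, and in PC14CDDP -4.00, -2.45, 0.72 and -2.54. Every A549 array was above every array of the other lines, and within PC14CDDP the LNA-miR-197 array stood far above the other 3. A549 was 67.7-fold above PC14 (log2 6.08 ± 0.81, SE, adjusted p = 0.00021) and 34.5-fold above PC14CDDP (5.11 ± 0.81, adjusted p = 0.000529). With normexp background correction these differences were 5.03 and 4.29, and the latter was 6.32 without the LNA-miR-197 arrays and 4.31 without the pre-miR-197 arrays, all of them called. PC14CDDP minus PC14 was 0.97 ± 0.81 (adjusted p = 0.358), with overlapping ranges.

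Of the receptors, IL6ST encodes gp130, the chain shared by the whole family. Its 7 probes lie along the minus strand of chromosome 5. At A_33_P3287338 the levels were 0.47, 0.69, 0.41 and 0.74 in A549 for pre-miR-197, NC, LNA-miR-197 and LNA-NC, 0.61, 0.56, 0.62 and 0.30 in PC14, and 0.28, -0.34, 0.03 and -0.30 in PC14CDDP. All 4 PC14CDDP arrays were below those of the other lines, which overlapped each other. PC14CDDP was lower than PC14 at 3 probes: by 0.82 at A_32_P223777, by 0.60 at A_33_P3233841 and by 0.60 at A_33_P3287338 (adjusted p = 0.00129, 0.0187 and 0.0128). The calls at A_33_P3233841 and A_33_P3287338 were lost without the NC arrays (-0.55 and -0.51, adjusted p = 0.0936 and 0.0734), and A_33_P3233841 also without the LNA-miR-197 arrays (adjusted p = 0.0722). The other 4 were not called, with differences from -0.48 at A_33_P3233834 (adjusted p = 0.0581) to 0.08 at A_32_P45168, and A_33_P3233843 between them at -0.43 (adjusted p = 0.118). A549 was higher than PC14CDDP at 6 of the 7 probes, by 0.52 to 0.66 (adjusted p from 0.00512 to 0.027), and the remaining one, A_23_P502470, gave 0.20. Of these 6, 4 were no longer called without the NC arrays (0.39 to 0.47, adjusted p from 0.0813 to 0.149) or without the LNA-NC arrays (0.35 to 0.50, adjusted p from 0.0851 to 0.139). At A_32_P223777 normexp background correction shrank both differences of PC14CDDP, to -0.44 against PC14 and 0.32 against A549. Between A549 and PC14 the single call was A_32_P45168 (0.66, adjusted p = 0.00824), lost without the LNA-NC arrays (adjusted p = 0.0522). That probe is uncertain, because the files give it just 15 bases at the IL6ST locus and also list a noncoding transcript that RefSeq assigns to the pseudogene MEIS3P1. Over the 12 arrays the 21 pairs of IL6ST probes had Pearson's r from 0.254 to 0.969, a description of arrays that share lines and slides.

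The probes with the following sequences are printed to show that the readings below came from separate stretches of the message. They lie on hg19 at chr5:55260037-55260096, chr5:55256263-55256322 and chr5:55238513-55238572, and exon annotation of that build was not used here.
A_33_P3233834: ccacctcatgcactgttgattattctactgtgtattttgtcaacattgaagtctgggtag
A_33_P3287338: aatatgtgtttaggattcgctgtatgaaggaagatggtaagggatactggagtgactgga
A_33_P3233841: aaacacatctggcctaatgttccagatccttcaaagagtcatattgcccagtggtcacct

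LIFR, the partner of gp130 for LIF, was lowest in A549. Its probe A_24_P397386 (chr5:38475942-38476001, minus strand) read -2.35, -2.50, -2.60 and -2.70 in A549 for pre-miR-197, NC, LNA-miR-197 and LNA-NC. PC14 read -0.04, 0.08, -0.12 and 0.29, and PC14CDDP -0.83, -0.20, -1.42 and -0.55. No line overlapped another, with PC14 highest and PC14CDDP between. PC14 was 6.01-fold above A549 (A549 minus PC14 -2.59 ± 0.19, SE, adjusted p = 7.27e-06) and 1.74-fold above PC14CDDP (adjusted p = 0.00926). With normexp background correction the former difference was -1.95, and the latter call was lost with the methods' t-test (adjusted p = 0.0715).

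OSMR, the oncostatin M receptor chain, was highest in PC14 at the probe A_21_P0000073 (chr5:38886589-38886648, plus strand). PC14 arrays ranged from 2.59 to 2.73, A549 arrays from 0.65 to 1.47 and PC14CDDP arrays from 0.03 to 0.95. PC14 did not overlap the other lines, which overlapped each other. PC14CDDP was lower than PC14 by 2.22 ± 0.17 (SE; 4.67-fold, adjusted p = 2.68e-05), and A549 was lower than PC14 by 1.67 ± 0.17 (3.17-fold, adjusted p = 5.02e-05). The second probe, A_23_P156289 (chr5:38933387-38933446), gave a smaller difference between PC14CDDP and PC14, -0.76 ± 0.10 (adjusted p = 0.000362), and A549 and PC14 overlapped there (-0.12 ± 0.10, adjusted p = 0.304). The mean of both probes gave -1.49 for PC14CDDP minus PC14 and -0.89 for A549 minus PC14, and which transcripts each probe reads was not tested. A549 minus PC14CDDP was 0.56 at A_21_P0000073 and 0.64 at A_23_P156289 (adjusted p = 0.0193 and 0.000456), and the former was lost without the pre-miR-197 arrays (adjusted p = 0.083) or without the LNA-NC arrays (0.45, adjusted p = 0.0891), and with the methods' t-test (adjusted p = 0.118).

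SOCS1, an inhibitor that binds JAK kinases, separated the lines most among the feedback genes. Its probe A_23_P420196 (chr16:11348384-11348443, minus strand), in the order pre-miR-197, NC, LNA-miR-197 and LNA-NC, read -2.62, -2.45, -1.82 and -2.67 in A549, -1.01, -1.03, -0.83 and -0.65 in PC14, and 2.02, 2.02, 0.85 and 1.65 in PC14CDDP. The order was A549, PC14, PC14CDDP from low to high, with no overlap. PC14CDDP was 5.73-fold above PC14 (2.52 ± 0.30, SE, adjusted p = 0.000254) and 16.3-fold above A549 (A549 minus PC14CDDP -4.03 ± 0.30, adjusted p = 6.34e-06). A549 was 2.84-fold below PC14 (-1.51 ± 0.30, adjusted p = 0.00237), a difference of -0.91 with normexp background correction, which gave -3.17 for A549 minus PC14CDDP.

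SOCS3, which blocks JAK kinases at gp130 itself, was lowest in PC14. Its probe A_23_P207058 (chr17:76353127-76353186, minus strand) read 1.31, 1.09, 1.33 and 1.20 in A549, 0.35, 0.01, -0.23 and 0.05 in PC14, and 1.24, 0.89, 0.69 and 0.91 in PC14CDDP. A549 and PC14CDDP overlapped and both lay above PC14. PC14CDDP was higher than PC14 by 0.89 ± 0.11 (SE, adjusted p = 0.000301) and A549 by 1.19 ± 0.11 (adjusted p = 2.63e-05). A549 minus PC14CDDP was 0.30 ± 0.11 (adjusted p = 0.0387), a call that was lost with 8 alternatives, among them the fits without the NC arrays, without the LNA-NC arrays and without the LNA-miR-197 arrays (adjusted p = 0.0938, 0.114 and 0.0949, the last with a difference of 0.19).

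CISH followed the same order as SOCS3. Its probe A_23_P144096 (chr3:50644023-50644082, minus strand) read -1.53, -1.40, -1.60 and -1.43 in A549, -3.26, -3.41, -2.88 and -3.24 in PC14, and -2.06, -2.03, -1.58 and -1.98 in PC14CDDP. PC14 lay below both other lines without overlap. PC14CDDP was 2.44-fold above PC14 (1.29 ± 0.13, SE, adjusted p = 8.96e-05) and A549 3.27-fold above PC14 (1.71 ± 0.13, adjusted p = 6.83e-06). A549 and PC14CDDP overlapped at the LNA-miR-197 array, with a difference of 0.42 ± 0.13 (adjusted p = 0.0167) that passed no longer with quantile normalization (0.27, adjusted p = 0.0881) or without the pre-miR-197, NC or LNA-NC arrays (0.35 to 0.38, adjusted p from 0.0842 to 0.0879). With normexp background correction the differences from PC14 were 0.76 for PC14CDDP and 1.04 for A549, both still called.

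PIM1, a serine/threonine kinase gene that STAT3 and STAT5 switch on, was highest in PC14CDDP. Its probe A_23_P345118 (chr6:37143102-37143161, plus strand) read 1.85, 1.61, 1.59 and 1.56 in A549, 2.48, 1.41, 2.11 and 1.53 in PC14, and 3.05, 2.14, 2.47 and 2.03 in PC14CDDP. Within every transfection PC14CDDP was above PC14, but the ranges overlapped, and in both lines the arrays of the miR-197 reagents were above those of the controls. PC14CDDP minus PC14 was 0.54 ± 0.15 (SE, adjusted p = 0.019), which without the transfection term gave an adjusted p of 0.134, without the NC arrays 0.0696, without the LNA-NC arrays 0.0558, without scaling between arrays 0.0757 and with the methods' t-test 0.286. PC14CDDP was 1.7-fold above A549 (adjusted p = 0.00201), and A549 and PC14 differed by -0.23 ± 0.15 (adjusted p = 0.213).

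No member probe passed the test for a transfection. After pre-miR-197 against NC, limma called 0 of 18 probes, beside 17 of all 33714 probes (0.0504%), and 2 members, PIM1 and SOCS3, had an unadjusted p under 0.05, as did 5211 of all probes. After LNA-miR-197 against LNA-NC it called 0 of 18, beside 7.91% of all probes, and 1 member, OSMR at A_21_P0000073, was under 0.05 unadjusted, as were 9226 of all probes. LNA-NC against NC also gave 0 of 18, beside 0.481% of all probes, with 2 members and 4573 of all probes under 0.05 unadjusted. For the difference between the pre-miR-197 and LNA-miR-197 contrasts it was 0 of 18, beside 0.0475% of all probes, with 1 member, SOCS3, and 6135 of all probes under 0.05 unadjusted. The methods' t-test on the same values had 0 members under 0.05 unadjusted in the first 3 of these comparisons, beside 552, 1040 and 1014 of all probes. It does not pair arrays by line, so differences between lines enter its spread and no conclusion is drawn from it. The ratio had the same sign in all 3 lines for 4 of 18 probes after pre-miR-197 (43.7% of all probes) and for 3 of 18 after LNA-miR-197 (47.7% of all probes). The median ratio of the 18 probes was 0.17 for each reagent, beside 0.02 and 0.00 over all probes. IL6ST supplied 7 of the 18 probes, and none of them had the same sign in all lines with either reagent. The counts of signs and the medians therefore lean on 1 gene, and no conclusion is drawn from them. LNA-NC and NC arrays enter several of these comparisons, which are therefore not independent.

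PIM1 came closest. Its pre-miR-197 arrays exceeded the NC arrays in 3 of 3 lines, by 0.23 in A549, by 1.07 in PC14 and by 0.91 in PC14CDDP. The mean was 0.74 ± 0.18 (SE, adjusted p = 0.128). LNA-miR-197 over LNA-NC was 0.03, 0.59 and 0.44, also above 0 in 3 of 3 lines (0.35 ± 0.18, adjusted p = 0.238), while LNA-NC over NC was -0.06, 0.12 and -0.11. In PC14 and PC14CDDP the PIM1 levels with either miR-197 reagent were above those with either control, and the contrasts of the reagents differed by 0.38 ± 0.25 (adjusted p = 0.454). The pre-miR-197 difference passed with normexp background correction (0.73, adjusted p = 0.0387) and with a trended, robust variance prior (adjusted p = 0.0448), in a range of adjusted p from 0.0387 to 1.0 over 16 alternatives and the fit itself.

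SOCS3 after pre-miR-197 was above NC in 3 of 3 lines, at 0.22, 0.35 and 0.35 in the same order. The mean of 0.30 ± 0.13 (SE) had an adjusted p of 0.309. After LNA-miR-197 it gave 0.13, -0.29 and -0.22 (mean -0.12, adjusted p = 0.581). Its contrasts differed by 0.43 ± 0.18 (adjusted p = 0.264), so the difference in direction was not established over the 3 lines.

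Some large ratios were seen in a single line, where 1 array stood against 1 and no test was possible. IL6 in A549 was 5.74-fold higher with LNA-miR-197 than with LNA-NC, against 1.61-fold in PC14, and in PC14CDDP neither array read it well above background. With pre-miR-197 IL6 was also above NC, 2.125-fold in A549 and 1.53-fold in PC14. In PC14CDDP that log2 ratio was -0.91, again with neither array well above background. The A549 control arrays themselves were 2.61-fold apart, LNA-NC above NC. That NC array, at -5.21, was the dimmest to read IL6 well above background, and the 2.125-fold and 2.61-fold ratios rest on it. IL11 in PC14CDDP was 9.59-fold higher with LNA-miR-197 than with LNA-NC. With pre-miR-197 it was 2.93-fold lower than with NC. In PC14 these IL11 ratios were 0.77 and -0.14 on the log2 scale, and in A549 -0.50 and -0.31. Averaged over lines, neither gene passed (IL6 1.14 ± 0.74, adjusted p = 0.364; IL11 1.18 ± 0.93, adjusted p = 0.458, both after LNA-miR-197). The repeated spots of 632 probes had a median SD of 0.057 to 0.064 (log2) within an array, which covers spotting and scanning but not culture or labeling. Every member probe had 1 spot, so this SD was not measured for any member.

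**Figure D2:**
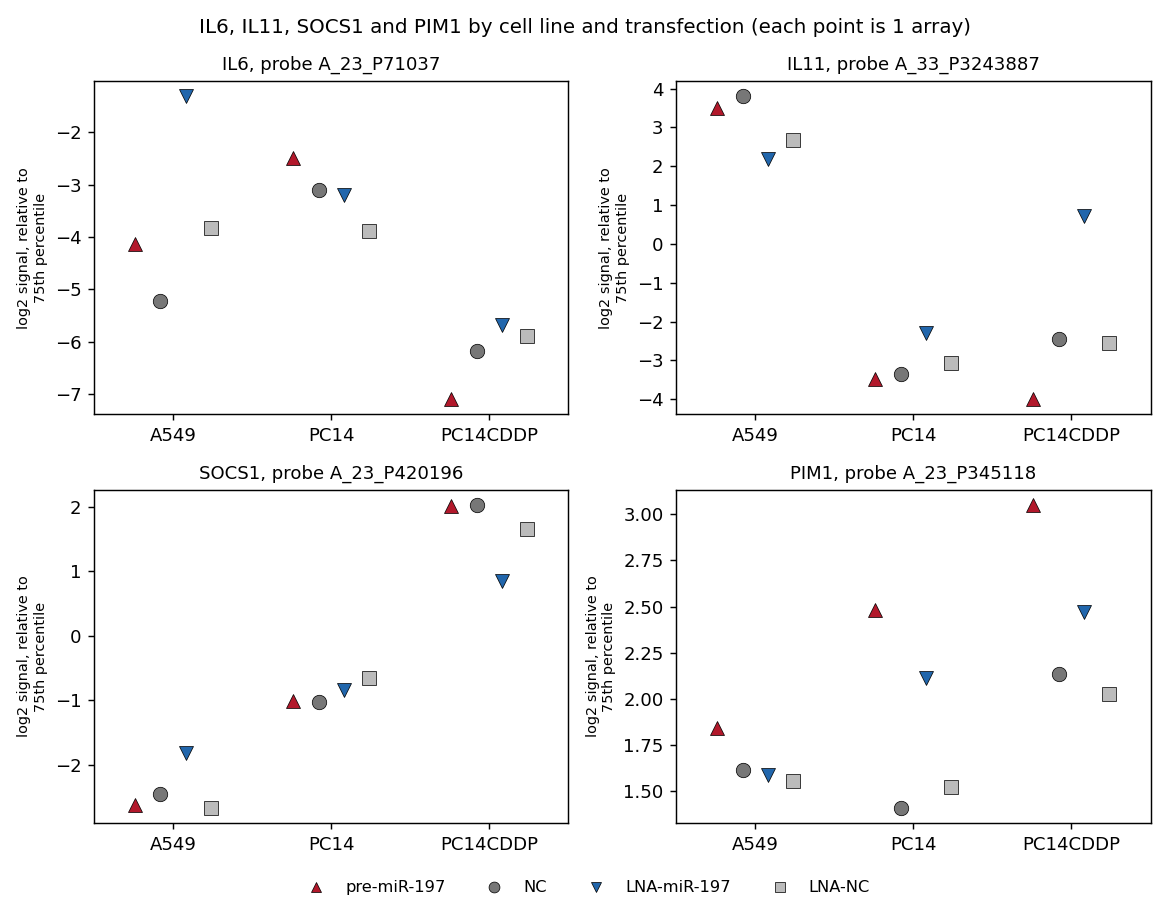
Levels of IL6, IL11, SOCS1 and PIM1, on the log2 scale with the array's 75th percentile at 0, by cell line. Each point is 1 array, with its shape and color giving the transfection, and the y axes differ between panels. PIM1 with pre-miR-197 is the highest array of each line, and IL11 with LNA-miR-197 (0.72) stands above the other PC14CDDP arrays.

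The ratios of the remaining members were small or uneven across lines. LIF ratios lay between -0.51 and 0.35 over both probes and both reagents. For LIFR the pre-miR-197 ratios were 0.15, -0.12 and -0.63 in the order A549, PC14, PC14CDDP and the LNA-miR-197 ratios 0.11, -0.41 and -0.88, below 0 in PC14 and PC14CDDP with either reagent. SOCS1 after LNA-miR-197 went from 0.85 in A549 through -0.19 in PC14 to -0.80 in PC14CDDP, while its pre-miR-197 ratios lay between -0.17 and 0.02. OSMR at A_21_P0000073 after LNA-miR-197 gave 0.56, -0.09 and 0.93 (mean 0.46 ± 0.20, SE, adjusted p = 0.18), and its second probe gave 0.05, 0.03 and 0.13. CISH stayed between -0.17 and 0.40. Between the controls, LNA-NC over NC at IL6ST probe A_32_P223777 was 0.66, 0.42 and 0.77 (mean 0.62 ± 0.16, adjusted p = 0.147), while the other 6 IL6ST probes averaged between -0.19 and 0.09.

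The IL6ST ratios shared a pattern of signs across the lines. After pre-miR-197, 6 of the 7 were below NC in A549 and above it in PC14 and PC14CDDP, with medians of the 7 of -0.21, 0.20 and 0.62. After LNA-miR-197 all 7 did so, with medians of -0.33, 0.31 and 0.55. This combination of signs was found for 11.3% of all probes after pre-miR-197, 10.7% after LNA-miR-197 and 1.71% in both, and among the 11 other tested member probes for 0 in both. The combination was picked from the IL6ST values themselves, so its share over all probes is no support for it. The 7 probes read RNA of the same 12 arrays and are not replicates. An interaction term, added after these values were seen, compared both reagents minus their controls in A549 with the mean of the other lines. It gave IL6ST differences from -0.28 to -0.87 with unadjusted p from 0.000738 to 0.29 and adjusted p from 0.595 to 0.928, and limma called 0 of 33714 probes (0.0%; 1862 at an unadjusted p under 0.05). The difference between lines was therefore not established.

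**Figure D3:**
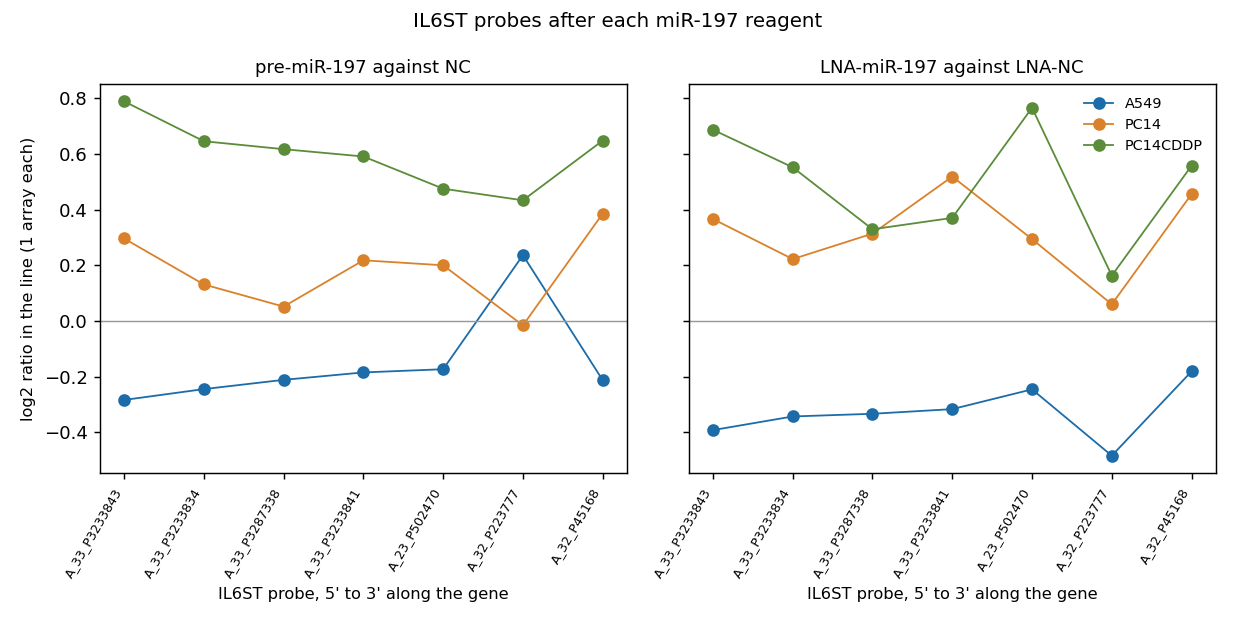
Log2 ratios of the 7 IL6ST probes (y axis), ordered from the 5′ to the 3′ side of the gene (x axis), for each miR-197 reagent over its own control. Each point is 1 array over 1 array, and lines join the probes of a cell line. A549 lies below 0 except at A_32_P223777 after pre-miR-197, and PC14CDDP lies above 0 at every probe.

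Other genes of the pathway were compared between the lines in the same fit. For PC14CDDP against PC14 their counts stand beside 26.1% of all probes called higher and 22.7% called lower. Among 6 probes of the other receptors, 1 was called higher and 5 lower in PC14CDDP than in PC14. IL27RA, which pairs with gp130, was lower by 2.49 ± 0.23 (SE, adjusted p = 5.83e-05), and IL31RA was at least 4.02-fold higher. IL6R, the chain that binds IL-6 itself, was at least 4.76-fold higher in A549 than in PC14CDDP at one probe and at least 3.43-fold at another. Of 13 probes of other feedback genes, 4 were higher and 2 lower in PC14CDDP than in PC14, with SOCS2 higher by 2.86 ± 0.10 (adjusted p = 5.17e-07), the same direction as SOCS1, SOCS3 and CISH. Of 16 probes of kinases, STATs and phosphatases, 5 were higher and 3 lower in PC14CDDP, among them the receptor-bound kinases JAK2, higher by 0.63, and JAK3, lower by 1.53. Of 14 probes of other immediate STAT3 targets, 4 were higher and 7 lower, with BCL6 and BCL3 lower by 2.44 and 2.21. Acute-phase genes, the classical liver targets of IL-6, were higher in A549 than in either other line at 14 of 17 probes and lower at 0, where 34.6% and 34.9% of all probes were called higher. Their median difference was 3.58 against PC14 and 4.79 against PC14CDDP, fitted values that include probes not well above background in those lines. FGG and FGB, fibrinogen chains, were at least 171-fold and at least 52.3-fold higher in A549 than in PC14. These 17 were the tested probes among 23, and FGG and FGB met the filter only through their A549 arrays. A probe bright in A549 alone can enter the tests but can only be called higher there. The acute-phase counts are thus partly set by the filter, and no conclusion is drawn from them. Cytokine and feedback genes of the NF-kappaB pathway, which also drives IL6, were higher in A549 at 8 of 9 probes against PC14 and 8 against PC14CDDP, where 1 was lower, beside the same shares of all probes. Here too the 9 were the probes, among 14, that met the filter.

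After LNA-miR-197 against LNA-NC 3 other pathway probes were called. SOCS7, a relative of the SOCS members, gave 0.57, 1.20 and 1.98 in A549, PC14 and PC14CDDP (mean 1.25 ± 0.23, SE, adjusted p = 0.0254). PIAS2, a STAT inhibitor gene, gave 0.70, 0.49 and 0.73 (0.64 ± 0.10, adjusted p = 0.0201), and the transcription factor gene STAT5B gave -0.27, -0.45 and -0.55 (-0.42 ± 0.10, adjusted p = 0.0419). SOCS7 and PIAS2 were 2 of 13 feedback probes called higher, where 4.26% of all probes were, and STAT5B was 1 of 16 kinase, STAT and phosphatase probes, where 3.65% of all were called lower. With any line left out, limma called 0 of 33714 probes in this comparison. No other list of ligands, receptors, STAT3 targets, acute-phase or NF-kappaB genes had a call after either reagent (0 in limma). Among the marker genes, COL1A1 was lower after LNA-miR-197 (-1.03 ± 0.25, adjusted p = 0.0442), and its part in these results was not tested.

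Genes whose level over the 12 arrays was most like that of a member were looked up among 27395 probes well above background on at least 9 arrays. Pearson's r was 0.994 for SOCS1 with C2CD2, and 0.954 after the mean of each line was taken off. SOCS3 was most like BID, a gene of the cell death machinery, with r = 0.992 and 0.964 after removal of the line means. LIFR was most like RECQL4 (0.992), CISH like NRIP1 (0.99), LIF like KIAA1274 (0.954), OSMR like VEGFA (0.985), PIM1 like the small nucleolar RNA SNORD19B (0.963), IL6 like FAM83H (0.951) and IL6ST like FAM190B (0.919). IL11 was most like a probe with no gene symbol, A_24_P401090 (0.987). These values are descriptions, with symbols as in the files: the 12 arrays fall into 3 lines on 2 slides, and the best of so many probes is high by construction.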

How the data were processed

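RNA of 12 transfections was measured on SurePrint G3 Human GE v2 8x60K arrays with 1 dye. The authors extracted the spots with Agilent Feature Extraction 10.7.3.1 (per the labels) and deposited each spot's intensity, as mean, local background and a processed signal that is background-subtracted and detrended but not scaled between arrays. Their value table equals the processed signal on all 62976 spots of each array. The paper's text names Student's t-test, and a normalization of these arrays was not given in the sources used here. The labels give every sample its line and transfection, and 0 columns of other samples were found.

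Control and outlier spots were left out, spots of a probe averaged, and log2 of the processed signal taken minus log2 of the array's 75th percentile (406.6 to 478.7 signal units). Missing values removed 106 probes, and a probe was tested when well above background on at least 3 of 12 arrays. No spot was saturated (0). Repeated spots and 1 array per line and transfection limit the precision, since depth has no meaning for arrays. The model, with terms for line and transfection, was fitted across the 12 arrays with limma 3.58.1 (R 4.3.3) and moderated with eBayes. Calls needed a Benjamini-Hochberg p under 0.05, adjusted over 33714 probes. The line pairs treated with control: deviations from the transfection means had r from 0.845 to 0.947 between arrays of a line, and deviations from the line means 0.266 to 0.507 between arrays of a transfection. Where no array of a group was well above background, the fold is a bound that holds only for the main background correction. The dim value was raised on each array to the lowest signal of any probe well above background, where it was below that. The fit was tested on simulated data with changes added to the pre-miR-197 arrays. Against NC it recovered 58 of 100 log2 changes of 1 and 86 of 100 changes of 2, with 11 false calls. A true doubling can therefore be missed. Coordinates of probes come from the scanner files (hg19), and RefSeq symbols were matched for 28392 of 50599 probes. Promoter entries were found for 9 of the 10 members.

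The members and gene lists were chosen with earlier results of these data known. Every member probe is named. From other lists, at most 2 probes with the largest difference among those called are named per comparison, with at least 3 arrays of the brighter group well above background. Likeness names come from the 3 genes with the highest r. The line interaction and the sign pattern of IL6ST were added after the values were seen. Alternatives were quantile normalization, normexp (offset 50), the deposited table, no filter, a filter on all 12 arrays, 1 probe or the mean of probes per gene, a trended and robust prior, no scaling, only the arrays compared, each line or transfection left out, no block, the slide as block, NC in place of LNA-NC, and the methods' t-test. Tables and plots were made in Python 3.11.15 (pandas 2.3.3, numpy 2.4.6, matplotlib 3.10.9).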

Additional observations from a re-analysis of the deposited data

Results flagged for a closer look

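Among 54 sets of 4 arrays, a member probe on the arrays of a line, 1 held an array far from the rest, where chance gives about 1 in 20. It was CISH on the PC14CDDP LNA-miR-197 array, at -1.58 while the other 3 lay between -2.06 and -1.98, a gap of 0.833 of the range. Of 54 probe and comparison pairs, 2 were flagged for ratios past 1.5-fold in opposite directions in different lines. SOCS1 after LNA-miR-197 against LNA-NC was 0.85 in A549 and -0.80 in PC14CDDP, 1.64 apart on the log2 scale. IL6 in LNA-NC against NC, controls only, was 1.38 in A549 and -0.78 in PC14, 2.16 apart. Not flagged was IL6 after pre-miR-197 against NC, at 1.09 in A549 and -0.91 in PC14CDDP. Its PC14CDDP arrays were not well above background. These differences rest on 1 array against 1 and were not tested.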

How the results depend on the processing

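Of 566 recomputed values of called member differences, 516 stayed past the threshold, 50 did not and 0 reversed. These counts include the deposited table, which equals the processed signal and so returned the main values by construction. Of 1241 recomputed values of uncalled differences, 10 became calls and 74 changed sign without a call, all of them of differences of at most 0.45 in size. For A549 against PC14CDDP the 17 called members became 10 with the highest probe per gene and 10 with the mean of probes, by construction because just 10 genes then enter, 11 with a fit restricted to the arrays compared and 11 with the methods' t-test. With 1 transfection left out they ranged from 10 to 17. For pre-miR-197 against NC the count of 0 became 1, PIM1, with normexp background correction and with eBayes with trend and robust. Without the replicate block (line or transfection) the members called were 0, 0 and 0 for the transfections and 12, 7 and 16 for PC14CDDP against PC14, A549 against PC14 and A549 against PC14CDDP. The slide in place of the line as the block gave 0, 0 and 0. Over all probes the 17 calls after pre-miR-197 became 633 with normexp, 587 with the trended prior, 560 with the filter on all 12 arrays and 0 with any line left out, and the 2666 calls after LNA-miR-197 became 4896 against NC, 576 without the filter and 0 with any line left out. Without scaling between arrays the median of all probes for pre-miR-197 against NC was 0.12, and 0.02 with it. The cause of these shifts was not tested. IL6 was not well above background in PC14CDDP, so its fold differences from that line are given as bounds for the main background correction.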
